A study of Mus musculus with 36 samples.

Results

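The MHC class II genes measured here were H2-Aa, H2-Ab1 and H2-Eb1, which encode the chains of the antigen-presenting molecules, Cd74, which encodes the invariant chain, and H2-DMa and H2-DMb1, which encode the peptide-loading helper H2-DM. They are described together with Ciita, the gene of their master transcriptional activator. The 7 genes were chosen by name, as members of one regulatory pathway, from the 16416 genes of the expression table, and all 7 passed the filter on low values. The study measured RNA in mouse bone marrow-derived macrophages, cells grown from bone marrow for 7 days in medium with L929 cell supernatant, which supplies macrophage growth factor. Cells were wild type (WT) or carried the D310N change in Tnip2, which encodes an adaptor protein of the NF-kB pathway. LPS, the bacterial endotoxin sensed by Toll-like receptor 4, was given at 100 ng/ml. Each genotype was sampled unstimulated (0 min) and after 30, 60, 120, 240 and 360 min of LPS, with 3 libraries in each of the 12 groups and 36 in all. Both genotypes shared the culture and the LPS treatment. The labels used here give no age, sex, zygosity or number of animals and do not say whether the libraries of a group came from separate cultures, so the tests measure the spread between these libraries, which may be technical.

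MHC class II molecules display peptides from engulfed material to CD4+ T cells. Their genes share a promoter module, the X and Y boxes, held by the RFX, CREB and NF-Y factors. Ciita protein does not bind DNA itself but docks on those factors and switches the genes on together. In macrophages Ciita is best known as a target of interferon-gamma, and resting macrophages hold low but inducible class II.

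Ciita lies at chr16:10480059-10528418 (plus strand) of GRCm38 (mm10), by the GENCODE annotation. The other H2 members lie in one stretch of the MHC on chromosome 17: H2-DMa at chr17:34119541-34139101 (plus), H2-DMb1 at chr17:34153072-34160230 (plus), H2-Ab1 at chr17:34257689-34269419 (plus), H2-Aa at chr17:34282744-34287823 (minus) and H2-Eb1 at chr17:34305867-34316674 (plus). Cd74 lies outside the MHC. Ciita overlaps Dexi and H2-DMa overlaps Brd2, both on the opposite strand, H2-Eb1 overlaps the antisense gene Gm20513, and Cd74 holds the microRNA gene Mir5107. Whether counting used strand is not given in the sources used here, so reads of such partners could be mixed. H2-DMb1 has a near-identical neighbour, H2-DMb2, and H2-Eb1 has H2-Eb2, so their values are uncertain to the extent that reads were split.

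The bases before the start of some class II genes are shown so that letters shared by several of them can be read. H2-DMb2, the neighbour of H2-DMb1, is shown for comparison and is not a member. Of the members, H2-Aa, H2-Eb1, H2-DMa and H2-DMb1 were matched in RefSeq's promoter table (GRCm38.p6), and Ciita, H2-Ab1 and Cd74 were not. Sequences run 5′ to 3′ along the gene's own strand. Capitals mark CCAAT, the core letters of the NF-Y site, or its reverse complement ATTGG, and TGACGTCA, the letters of a cyclic AMP response element, and CNGATGATG, letters shared by several class II starts. The motifs were chosen after the promoters had been read.
H2-Aa, 120 bases at chr17:34287824-34287943, minus strand: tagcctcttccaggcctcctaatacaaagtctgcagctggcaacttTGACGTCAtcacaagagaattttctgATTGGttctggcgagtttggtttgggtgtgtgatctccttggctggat
H2-Eb1, 120 bases at chr17:34305747-34305866, plus strand: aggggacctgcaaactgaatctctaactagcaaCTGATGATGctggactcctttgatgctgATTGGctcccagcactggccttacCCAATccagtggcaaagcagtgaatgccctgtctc
H2-DMb1, 30 bases at chr17:34153094-34153123, plus strand: ctagtaaCTGATGATGctaggctgattcac
H2-DMb2, 30 bases at chr17:34145123-34145152, plus strand: ctattaaCCGATGATGctaggctaagtcac

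In H2-Aa the letters TGACGTCA stood 74 to 67 bases before the start and ATTGG stood 48 to 44 bases before it. In H2-Eb1 CTGATGATG stood 87 to 79 bases before the start, with ATTGG at 59 to 55 and CCAAT at 35 to 31. The same letters stood 90 to 82 bases before the RefSeq start of H2-DMb1 and, with another letter at the free position, 119 to 111 bases before that of H2-DMb2. In the 250 bases before each start, on both strands, CCAAT was found in 33.8% of 32851 promoters and in 4 of the 4 members in the table. TGACGTCA was found in 1.55% of promoters and in 1 member, H2-Aa. CNGATGATG was found in 260 promoters, which is 0.791%, and H2-Eb1, H2-DMb1 and H2-DMb2 were 3 of them. These letters were not found before the starts of H2-Aa and H2-DMa. CCAAT does not overlap the other motifs in these stretches, and a match is a description of letters, not a measured binding site.

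The deposited values were on a log2 scale and reached down to -4.14, and 11656 genes reached a linear value of 10 in at least 3 libraries and were tested. Library medians ran from 6.83 to 7.2 and correlations across genes within a group from 0.9971 to 0.9994. The depth of the libraries is unknown, since the table holds no counts. The values are not divided by gene length, so levels are compared between libraries and never between genes. The 9 macrophage markers in the table, among them Csf1r and Adgre1, summed to 237000 to 290000 linear units in WT libraries and 226000 to 289000 in D310N libraries. The 3 WT libraries at 360 min spread more than those of any other group. The root mean square distance of a library from the mean of the other libraries of its group was 0.369 for replicate 1. It was 0.126 to 0.192 outside that group.

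Ciita showed no change past the test in the first 60 min of LPS and was 2.49 times as high by 120 min. In WT cells the log2 level of Ciita was 6.62, 6.51 and 6.49 in the 3 unstimulated libraries, and 6.56, 6.64 and 6.71 at 30 min. It was 6.68, 6.59 and 6.54 at 60 min, then 7.88, 7.81 and 7.88 at 120 min. It was 8.14, 8.19 and 7.91 at 240 min, then 7.94, 8.30 and 8.28 at 360 min. The libraries of the first 3 times overlapped one another and all lay below the lowest library of the later times. The difference from 0 min was 0.06 ± 0.09 (log2, SE) at 60 min, with an adjusted p of 0.652 in limma. At 120 min Ciita had risen by 1.32 ± 0.09, which is 2.49-fold (adjusted p = 9.65e-14 in limma), and at 360 min by 1.64 ± 0.09, which is 3.11-fold.

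D310N cells also showed the step between 60 and 120 min, from lower values. Their Ciita level was 6.38, 6.42 and 6.37 at 0 min, 6.11, 6.29 and 6.47 at 30 min, then 6.41, 6.40 and 6.44 at 60 min. It was 7.54, 7.63 and 7.60 at 120 min, 7.58, 7.88 and 7.63 at 240 min, then 7.45, 7.73 and 7.54 at 360 min. The 3 D310N libraries lay below all 3 WT libraries at each of the 6 times. In D310N cells Ciita rose by 1.2 ± 0.09 at 120 min (2.3-fold), 1.31 ± 0.09 at 240 min and 1.18 ± 0.09 at 360 min (2.27-fold).

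**Figure D1:**
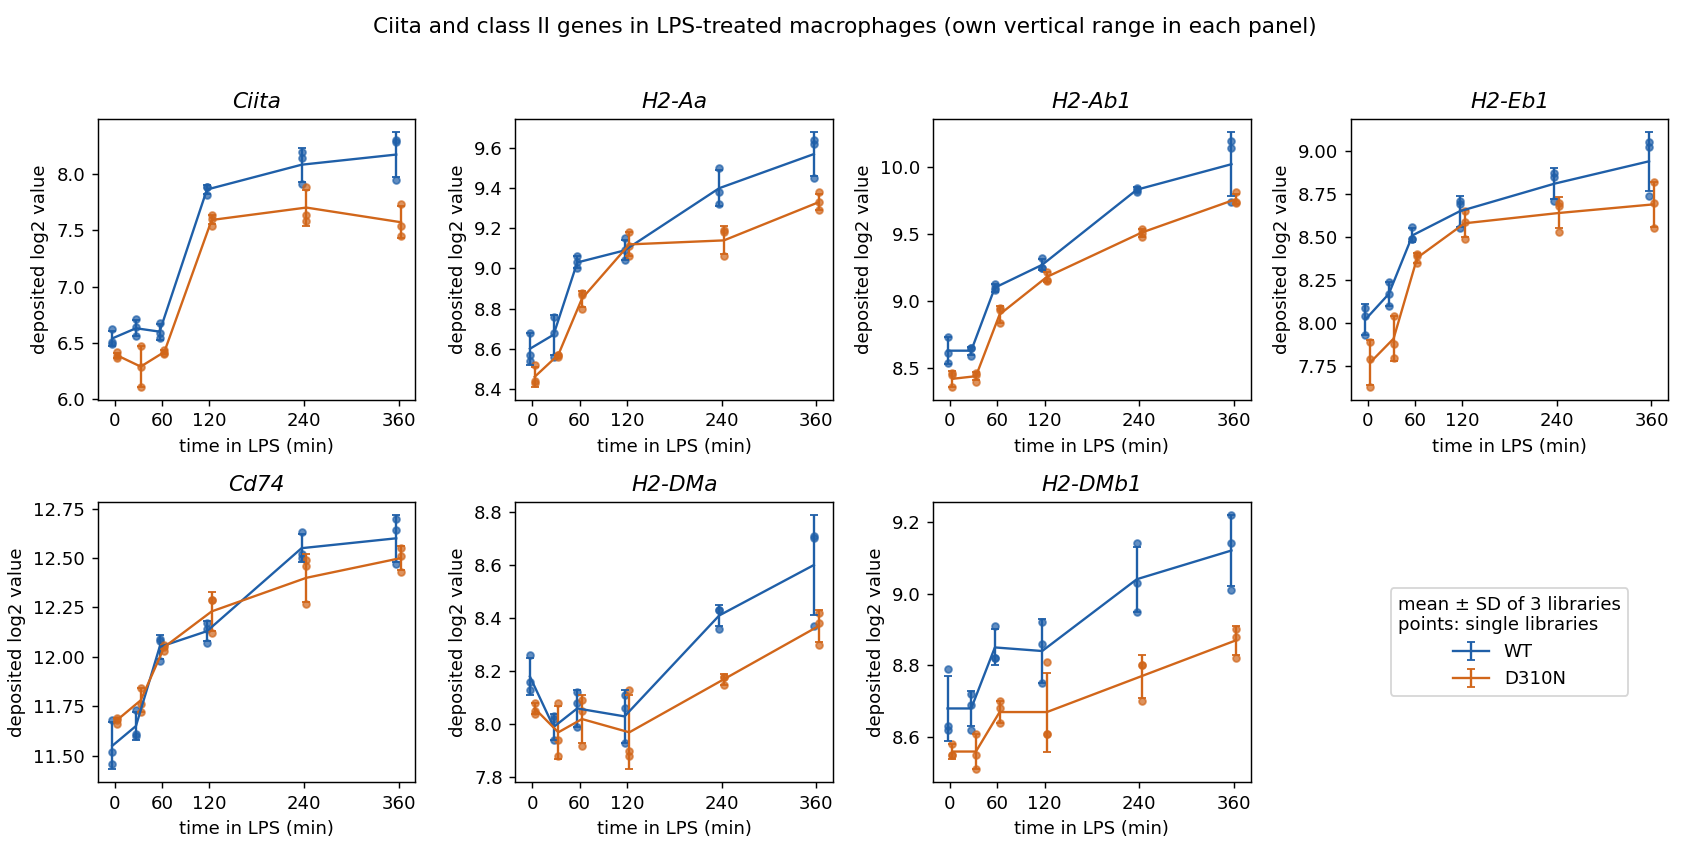
Log2 expression of each of the 7 genes (y axis) in every library at each time after LPS in minutes (x axis), WT and D310N in separate colours, with points for libraries and lines through the group means. Ciita steps up between 60 and 120 min in both genotypes, and its D310N libraries lie below the WT libraries at each time.

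The genes of the class II chains passed the test at 60 min, when Ciita did not. H2-Ab1, the beta chain of the I-A molecule, read 8.73, 8.61 and 8.54 in unstimulated WT cells, 8.65, 8.59 and 8.65 at 30 min, then 9.10, 9.13 and 9.08 at 60 min. It then read 9.25, 9.25 and 9.32 at 120 min, 9.84, 9.83 and 9.81 at 240 min, then 9.74, 10.14 and 10.19 at 360 min. Every WT library from 60 min on exceeded every library of 0 and 30 min. Over 0 min, H2-Ab1 had risen by 0.48 ± 0.07 at 60 min (adjusted p = 6.4e-07 in limma) and by 1.40 ± 0.07, or 2.63-fold, at 360 min. In D310N cells H2-Ab1 read 8.45, 8.46 and 8.36 at 0 min, 8.46, 8.45 and 8.40 at 30 min, then 8.95, 8.93 and 8.84 at 60 min. It read 9.22, 9.15 and 9.16 at 120 min, 9.48, 9.51 and 9.54 at 240 min, then 9.73, 9.81 and 9.74 at 360 min. The D310N libraries were below all WT libraries at 5 of the 6 times, and at 360 min WT replicate 1, at 9.74, fell within the D310N range. The rise over 0 min in D310N cells was 0.49 ± 0.07 at 60 min and 1.34 ± 0.07, or 2.53-fold, at 360 min.

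H2-Aa, the alpha chain of I-A, moved with its partner. Its WT libraries read 8.68, 8.54 and 8.57 at 0 min, 9, 9.06 and 9.03 at 60 min, then 9.45, 9.64 and 9.62 at 360 min. Its D310N libraries read 8.52, 8.44 and 8.43, then 8.87, 8.88 and 8.80, then 9.38, 9.29 and 9.33 at these times. At these 3 times the genotypes did not overlap. H2-Aa had risen by 0.43 ± 0.06 at 60 min in WT cells and by 0.39 ± 0.06 in D310N cells. By 360 min the rise was 0.97 ± 0.06 in WT and 0.87 ± 0.06 in D310N cells. H2-Eb1, the beta chain of the I-E molecule, read 8.09, 8.04 and 7.93 in unstimulated WT cells and 7.79, 7.89 and 7.63 in D310N cells. At 360 min it read 8.74, 9.05 and 9.02 in WT and 8.55, 8.82 and 8.70 in D310N cells, where WT replicate 1 again lay inside the D310N range. H2-Eb1 had risen by 0.49 ± 0.08 at 60 min in WT and 0.61 ± 0.08 in D310N cells, and by 0.92 ± 0.08 at 360 min in both.

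Cd74, whose product blocks the peptide groove of new class II molecules and guides them to endosomes, was the member with no genotype difference past the test. The gene lies at chr18:60803848-60812652 (plus strand). Its WT libraries read 11.68, 11.52 and 11.46 at 0 min, 12.08, 12.09 and 11.98 at 60 min, 12.52, 12.63 and 12.50 at 240 min, then 12.47, 12.70 and 12.64 at 360 min. Its D310N libraries read 11.69, 11.68 and 11.66 at 0 min, 12.05, 12.06 and 12.03 at 60 min, 12.27, 12.49 and 12.46 at 240 min, then 12.55, 12.51 and 12.43 at 360 min. The genotypes overlapped at each of these times except 240 min, where the D310N libraries were the lower. Cd74 had risen by 0.49 ± 0.06 at 60 min in WT and 0.37 ± 0.06 in D310N cells, and at 360 min by 1.05 ± 0.06 (2.07-fold) and 0.82 ± 0.06 (1.77-fold). These Cd74 values depend on the scaling of the libraries. Under quantile normalisation its WT rises from 60 to 360 min were 0.26, 0.17, 0.29 and 0.35, all still past the test. Its D310N rises were then 0.13, 0.16, 0.07 and 0.12, and 3 of these missed it in limma (adjusted p = 0.0863 at 60 min, 0.316 at 240 min and 0.0799 at 360 min).

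The genes of H2-DM, which removes the invariant chain fragment and edits the bound peptide, rose by less at 360 min than the other members did under the scaling of the deposited values, though not less than Cd74 under quantile normalisation. H2-DMa read 8.26, 8.16 and 8.13 in unstimulated WT cells and 8.37, 8.70 and 8.71 at 360 min, and in D310N cells 8.05, 8.08 and 8.04 and then 8.42, 8.30 and 8.38. H2-DMb1 read 8.79, 8.63 and 8.62 in unstimulated WT cells and 9.01, 9.14 and 9.22 at 360 min, and in D310N cells 8.55, 8.58 and 8.55 and then 8.88, 8.82 and 8.90. At 360 min both genes lay above their unstimulated libraries in each genotype. H2-DMa passed the test at 240 min in WT cells (0.23 ± 0.08, adjusted p = 0.00747 in limma) and at 360 min in both genotypes, by 0.41 ± 0.08 in WT and 0.31 ± 0.08 in D310N cells. H2-DMb1 passed it from 60 min on in WT cells, at 0.17 ± 0.06 (adjusted p = 0.0248 in limma), and from 240 min on in D310N cells. The WT calls of H2-DMb1 at 60 and 120 min rested on single libraries. The 60 min call was lost without WT replicate 2 or 3 of 0 min or WT replicate 1 of 60 min (0.14 to 0.15, adjusted p up to 0.118 in limma), and the 120 min call without the same unstimulated replicates or WT replicate 3 of 120 min (0.13 to 0.14, adjusted p up to 0.0999 in limma).

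Counted over the members, the changes after LPS that passed the test were upward. In WT cells 0 of the 7 were called higher at 30 min (4.79% of all tested genes were called higher and 1.3% lower), 5 at 60 min (20.1% and 17.1%), 6 at 120 min (32.4% and 34.2%), 7 at 240 min (39.6% and 40.4%), then 7 at 360 min (39.3% and 41%). No member was called lower, but H2-DMa in WT cells was under other settings. It was at -0.18 at 30 min with library weights (adjusted p = 0.0357 in limma), at -0.14 at 120 min with library weights (adjusted p = 0.0343 in limma) and at -0.15 at 120 min without WT replicate 1 of 360 min (adjusted p = 0.0357 in limma). In D310N cells the counts were 0 (5.16% and 1.48%), 4 (21.3% and 17.2%), 5 (31.9% and 32.1%), 6 (39% and 40.2%) and 7 (39% and 41%). At 30 min the unadjusted p in limma was under 0.05 for 0 members in D310N cells and for 1 in WT cells, H2-DMa, at -0.19 ± 0.08 (adjusted p = 0.171 in limma). The balance of all genes called depended on the scaling: under quantile normalisation the higher and lower calls were 601 and 621 for WT at 30 min and 1882 and 3427 at 60 min, and for D310N cells 566 and 511 at 30 min, 1941 and 3485 at 60 min, then 3037 and 4654 at 120 min. The counts of members stayed within 1.5 times of those above under that scaling.

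**Figure D2:**
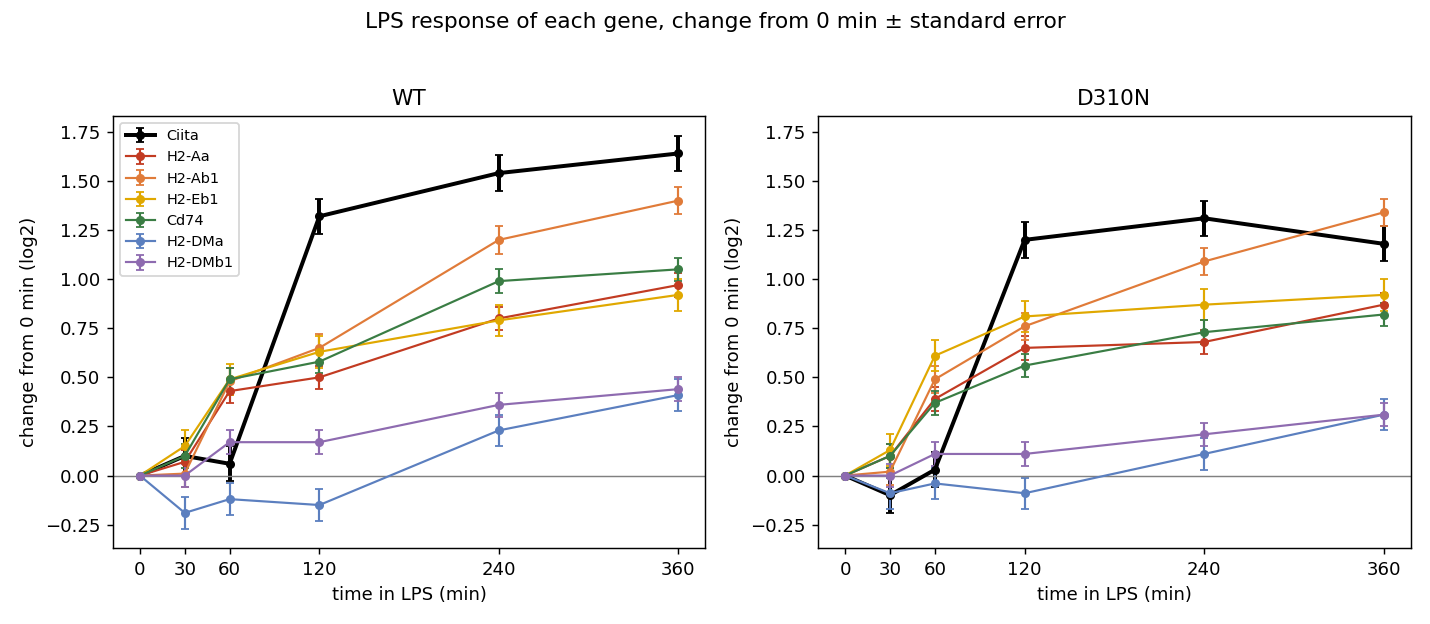
Log2 difference from 0 min (y axis) of each gene at each time after LPS in minutes (x axis), with bars for the standard error of the limma fit over 36 libraries. WT and D310N are in separate panels and the genes in separate colours. H2-Aa, H2-Ab1, H2-Eb1 and Cd74 are above 0 at 60 min, when Ciita is at 0.06 in WT and 0.03 in D310N cells.

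Steps between neighbouring times placed the rises. From 30 to 60 min, H2-Aa, H2-Ab1, H2-Eb1, Cd74 and H2-DMb1 rose in WT cells (5 of 7 members, against 17.4% of tested genes called higher), by 0.36, 0.47, 0.34, 0.40 and 0.17. From 60 to 120 min 2 members passed the test (26%): Ciita rose by 1.25 ± 0.09, or 2.38-fold (adjusted p = 7e-13 in limma), and H2-Ab1 by 0.17. From 120 to 240 min 6 members rose (33.5%), led by H2-Ab1 at 0.55 and Cd74 at 0.42, with H2-DMa at 0.37, H2-Aa at 0.31, Ciita at 0.23 and H2-DMb1 at 0.19. From 240 to 360 min H2-Aa and H2-Ab1 rose by 0.17 and 0.20 (2 of 7, 12.3%). The first step past the test thus came one interval earlier for the class II chain genes than for Ciita, and the difference in timing itself was not tested. In D310N cells 4 members rose from 30 to 60 min (17%): H2-Ab1 and H2-Eb1 by 0.47 each, H2-Aa by 0.28 and Cd74 by 0.27. From 60 to 120 min 5 rose (27.8%), Ciita by 1.17, H2-Aa and H2-Ab1 by 0.27 each, H2-Eb1 by 0.20 and Cd74 by 0.18. From 120 to 240 min 3 rose (31.2%), H2-Ab1 by 0.34, H2-DMa by 0.20 and Cd74 by 0.17. From 240 to 360 min 3 rose (18.6%), H2-Ab1 by 0.25, H2-DMa by 0.20 and H2-Aa by 0.19. In each genotype the neighbouring times of a member not named here did not differ past the test. Several small steps rested on single libraries. In WT cells these were also H2-DMb1 from 30 to 60 min and from 120 to 240 min, lost without any of 3 and 2 libraries (adjusted p up to 0.126 and 0.0562 in limma), H2-Ab1 from 60 to 120 min, lost without any of 3 (adjusted p up to 0.102 in limma), and H2-Aa from 240 to 360 min, lost without any of 4 (adjusted p up to 0.17 in limma). In D310N cells H2-Eb1 and Cd74 from 60 to 120 min lost their calls without any of 5 and 2 libraries (adjusted p up to 0.133 and 0.0624 in limma). There Cd74 and H2-DMa from 120 to 240 min lost theirs without any of 3 and 2 (0.126 and 0.109 in limma), and H2-DMa and H2-Aa from 240 to 360 min without any of 5 and without replicate 1 of 240 min (0.127 and 0.0649 in limma). In WT cells Ciita from 120 to 240 min lost its call without any of 5 libraries (0.17 to 0.24, adjusted p up to 0.159 in limma), namely the 3 of 120 min and replicates 1 and 2 of 240 min. H2-Ab1 from 240 to 360 min lost it without any of the 3 libraries of 240 min or replicate 2 or 3 of 360 min (0.11 to 0.20, adjusted p up to 0.298 in limma), and 0.34 was found without replicate 1 of 360 min. The steps of Cd74 also depended on scaling. Under quantile normalisation its WT step from 120 to 240 min was 0.12 and lost its call (adjusted p = 0.108 in limma). Its D310N steps from 30 to 60, 60 to 120 and 120 to 240 min were then 0.10, 0.03 and -0.09. They lost their calls too (adjusted p = 0.253, 0.754 and 0.221 in limma). Its WT step from 30 to 60 min kept its call. Ciita from 120 to 240 min in WT cells lost its call under trimmed mean scaling.

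The comparison of genotypes asked how these levels differed between D310N and WT cells. The labels do not give the animals or cultures behind each genotype. The D310N change therefore cannot be told apart from other differences between them. Averaged over the 6 times, Ciita, H2-Aa, H2-Ab1, H2-Eb1, H2-DMa and H2-DMb1 were lower in D310N than in WT macrophages, and Cd74 did not pass the test (6 of 7 members called lower, against 25.4% of all tested genes). Ciita differed most, by -0.32 ± 0.04, which is 1.25-fold lower (adjusted p = 3.17e-08 in limma). H2-Ab1 differed by -0.21 ± 0.03 (adjusted p = 1.48e-07 in limma), H2-Eb1 by -0.19 ± 0.03, H2-DMb1 by -0.18 ± 0.02, H2-Aa by -0.15 ± 0.02 and H2-DMa by -0.12 ± 0.03. Cd74 differed by 0.02 ± 0.03 (adjusted p = 0.606 in limma). The differences were small in size, and the median over the 7 members was -0.18 against 0 over all tested genes. None of these 7 calls changed under any of 47 alternatives. Of the 9 macrophage markers 7 were lower and 2 higher in D310N cells on average, with a median of -0.09, and their part in the class II differences was not tested. In bulk RNA, fewer cells of a type and less RNA per cell cannot be told apart.

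The direction was shared by most libraries, though D310N libraries of the same number may not be independent across times. Of the 18 D310N libraries, 18 lay below the WT mean of their time for Ciita, H2-Ab1 and H2-DMb1, 17 for H2-Eb1, 16 for H2-Aa, 15 for H2-DMa and 8 for Cd74. D310N libraries lay below all WT libraries at 6 of 6 times for Ciita, 5 for H2-Ab1 and H2-DMb1, 4 for H2-Aa and H2-Eb1, 2 for H2-DMa and 1 for Cd74. Such a lack of overlap, in either direction, was found in 32.7% of all tested genes at 0 min, 33.4% at 30 min, 37.4% at 60 min, 31.7% at 120 min, 37.6% at 240 min and 22.2% at 360 min.

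**Figure D3:**
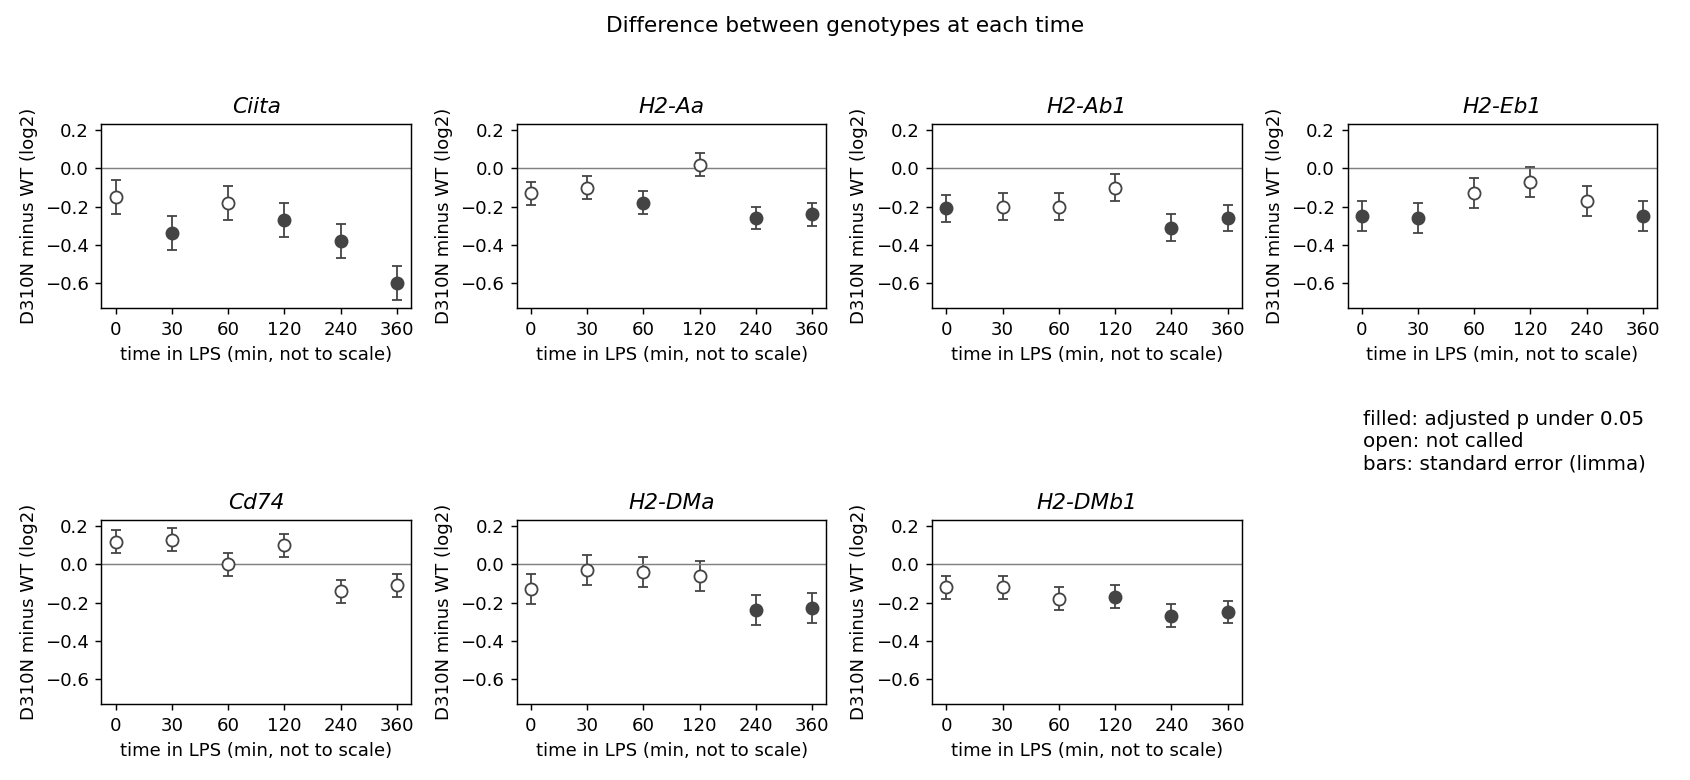
Log2 difference between D310N and WT (y axis, D310N minus WT) of each gene at each time after LPS in minutes (x axis), with bars for the standard error of the limma fit over 36 libraries. Ciita is below 0 at each time, from -0.15 at 0 min to -0.60 at 360 min, and Cd74 lies on both sides of 0.

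Taken time by time, most members passed the test at 240 and 360 min and fewer did earlier. At 0 min 2 of the 7 members were lower in D310N cells (7.09% of tested genes were): H2-Ab1 by -0.21 ± 0.07 (adjusted p = 0.0445 in limma) and H2-Eb1 by -0.25 ± 0.08 (adjusted p = 0.0438 in limma). At 30 min 2 members were lower (7.78%), Ciita by -0.34 ± 0.09 (adjusted p = 0.013 in limma) and H2-Eb1 by -0.26 ± 0.08 (adjusted p = 0.0285 in limma). At 60 min H2-Aa alone was lower (7.96%), by -0.18 ± 0.06 (adjusted p = 0.0327 in limma), and H2-Ab1, at -0.20, missed the test (adjusted p = 0.0502 in limma). At 120 min 2 members were lower (9.72%), Ciita by -0.27 ± 0.09 (adjusted p = 0.0463 in limma) and H2-DMb1 by -0.17 ± 0.06 (adjusted p = 0.0494 in limma). These early calls were close to the threshold. The calls of H2-Ab1 and H2-Eb1 at 0 min were lost without any of 16 and 7 libraries (adjusted p up to 0.243 and 0.289 in limma). Those of Ciita and H2-DMb1 at 120 min were lost without any of 22 and 28 (adjusted p up to 0.135 and 0.209 in limma), and that of H2-Aa at 60 min without any of the 3 WT libraries or D310N replicate 1 or 3 of that time (-0.15 to -0.20, adjusted p up to 0.151 in limma). Ciita at 30 min lost its call without WT replicate 3 or D310N replicate 1 of that time (-0.25 to -0.31, adjusted p up to 0.142 in limma), and H2-Eb1 at 30 min without any of 4 libraries of that time (-0.21 to -0.26, adjusted p up to 0.187 in limma).

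At 240 min 5 members were lower in D310N cells (10% of tested genes were). Ciita differed by -0.38 (adjusted p = 0.0046 in limma), H2-Ab1 by -0.31 (0.00142), H2-DMb1 by -0.27 (0.00209), H2-Aa by -0.26 (0.00209) and H2-DMa by -0.24 (0.0271). The call of H2-DMa was lost without any of 5 libraries of that time (adjusted p up to 0.0815 in limma). The others were kept under each alternative. At 360 min 6 members were lower (9.52%). Ciita, at 8.17 ± 0.20 (SD, n = 3) in WT and 7.57 ± 0.14 in D310N cells, differed by -0.60 ± 0.09, which is 1.52-fold lower (adjusted p = 4.91e-05 in limma). H2-Ab1, H2-DMb1, H2-Eb1, H2-Aa and H2-DMa differed by -0.26, -0.25, -0.25, -0.24 and -0.23, with adjusted p values of 0.00719, 0.00407, 0.0339, 0.00446 and 0.035 in limma. Cd74 was called at no time, with differences of 0.12, 0.13, 0.00, 0.10, -0.14 and -0.11 from 0 to 360 min.

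The 360 min values rest on a WT group that spreads widely. In that group replicate 1 was lower than the mean of the other two in all 7 members, by 0.35 for Ciita, 0.42 for H2-Ab1, 0.33 for H2-DMa, 0.30 for H2-Eb1, 0.20 for Cd74, 0.18 for H2-Aa and 0.17 for H2-DMb1. Without it the genotype differences at 360 min were larger: -0.72 for Ciita, -0.40 for H2-Ab1, -0.35 for H2-Eb1, -0.34 for H2-DMa, -0.31 for H2-DMb1, -0.30 for H2-Aa and -0.17 for Cd74 (adjusted p = 0.0521 in limma). Without WT replicate 3 instead, H2-Ab1 was at -0.18 and lost its call (adjusted p = 0.0622 in limma). H2-Eb1 lost it without any of 4 libraries of that time (adjusted p up to 0.2 in limma) and H2-DMa without any of 5 (adjusted p up to 0.145 in limma). A fit of the 6 libraries of 360 min alone called no member, with adjusted p values in limma of 0.124 for Ciita and 0.209 to 0.388 for the other 5.

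**Figure D4:**
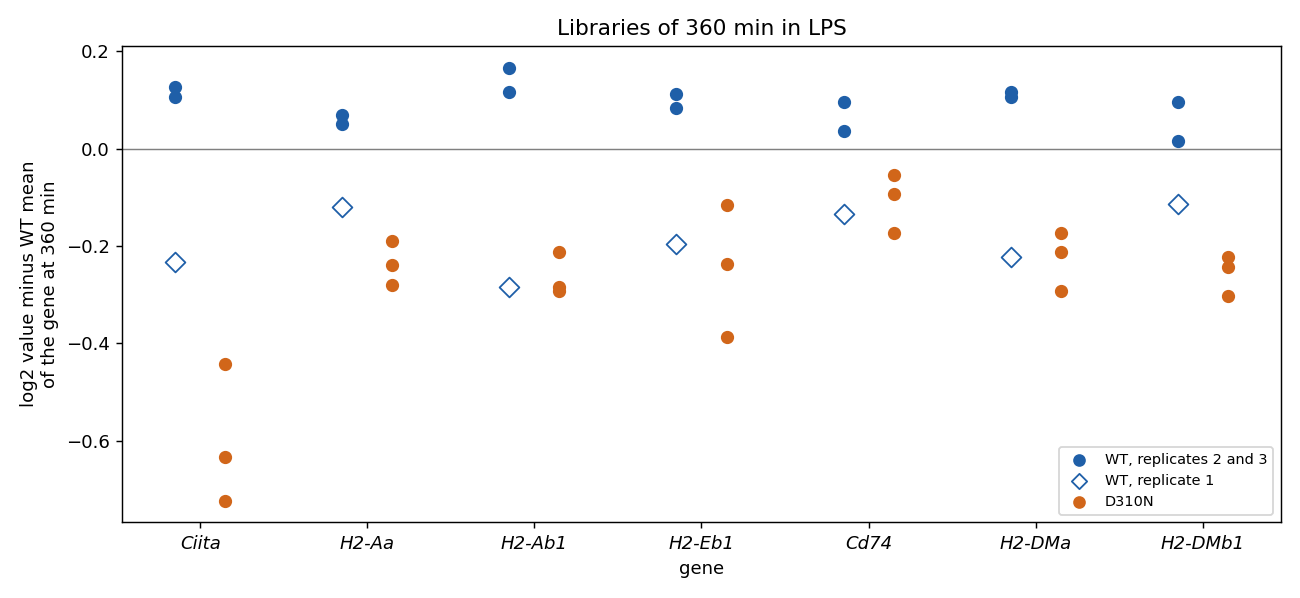
Log2 level of each gene at 360 min relative to the mean of the 3 WT libraries (y axis), 1 point per library, WT and D310N in separate colours, by gene (x axis). The lowest WT point of each gene is replicate 1, and the D310N points of Ciita all lie below it.

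Whether the response to LPS itself differed between genotypes was tested as the difference of the differences from 0 min. No member passed at any time, where 0% of tested genes passed at 30 min, 0.0686% at 60 min, 0.935% at 120 min, 1.95% at 240 min and 2.01% at 360 min. Ciita came nearest: its response was smaller in D310N cells by -0.45 ± 0.13 at 360 min (adjusted p = 0.0674 in limma) and -0.24 ± 0.13 at 240 min (adjusted p = 0.435 in limma). Cd74 was next, at -0.27 ± 0.09 at 240 min (adjusted p = 0.116 in limma) and -0.23 ± 0.09 at 360 min (adjusted p = 0.195 in limma). A test of all 5 times jointly passed for 4.84% of tested genes and for no member, with an unadjusted p under 0.05 for 3 of them: Cd74 (0.00859, adjusted 0.113), H2-Aa (0.0184, adjusted 0.177) and Ciita (0.0227, adjusted 0.201 in limma). The call turned on WT replicate 1 of 360 min. Without that library the Ciita response at 360 min differed by -0.57 (adjusted p = 0.005 in limma) and that of Cd74 by -0.30 (adjusted p = 0.0348 in limma), Cd74 at 240 min passed as well (-0.27, adjusted p = 0.0421 in limma), and 4 members passed the joint test. Ciita at 360 min also passed without D310N replicate 2 of that time, at -0.53 (adjusted p = 0.0374 in limma), and under quantile normalisation, at -0.48 (adjusted p = 0.0363 in limma).

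Other parts of the class II pathway were counted from lists of known genes. Of the 17 listed partners, which cover the other class II genes, the endosomal proteases and the regulators of class II turnover, 12 were in the table and 9 were tested. The listed turnover regulators March1, March8 and March9 were not in the table used and were not tested. Rows whose names had turned into dates were left out and may have held them. On average over the times 1 of the 9 tested partners was higher and 4 were lower in D310N cells, with a median of -0.03. Of all tested genes 22.7% were higher and 25.4% lower. The protease genes went in different directions: Ctsl (cathepsin L) was higher by 0.28 ± 0.03, and Lgmn (legumain) was lower by -0.26 ± 0.02 and Ctsb (cathepsin B) by -0.23 ± 0.02. Ctss, the protease that trims the invariant chain in these cells, was at -0.02 (adjusted p = 0.371 in limma), and Ifi30, a lysosomal thiol reductase, at 0.00. Cd83, which protects surface class II from turnover, was lower by -0.15 ± 0.02. H2-Ob, a chain of the H2-DM inhibitor H2-DO, was lower by -0.33 ± 0.10, with log2 levels of only 2.58 to 3.89. Ctsb lost its call under quantile normalisation (-0.06, adjusted p = 0.209 in limma), and H2-Ob when each replicate number gave 1 mean per genotype (adjusted p = 0.0556 in limma). H2-Eb2 (log2 -0.41 to 0.46), H2-DMb2 (1.24 to 2.5) and H2-Oa (0.64 to 1.96) were under the filter in all 36 libraries.

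Of 15 listed factors and cofactors of the class II promoter, 7 were higher and 4 lower in D310N cells on average, with a median of 0.06 (22.7% and 25.4% of all tested genes were higher and lower). The subunits of the RFX complex differed among themselves: Rfxap was higher by 0.19 ± 0.04, Rfx5 was lower by -0.07 ± 0.03 (adjusted p = 0.0285 in limma) and Rfxank was at 0.00. The call of Rfx5 was lost without WT replicate 3 of 0 min, WT replicate 1 of 120 min or D310N replicate 1 of 360 min (-0.07, adjusted p up to 0.0541 in limma). It was lost also under quantile normalisation and with 1 mean per replicate number and genotype (adjusted p up to 0.142 in limma). In WT cells LPS moved these subunits apart as well. Rfx5 rose by 0.33 at 60 min, 0.48 at 120 min, 0.79 at 240 min and 0.60 at 360 min, and Rfxap fell by 0.43, 0.60, 0.91 and 0.90 at these times. Rfxank fell by 0.52 at 120 min and 0.78 at 360 min, values that were -0.29 and -0.41 under quantile normalisation, where Rfxap at 360 min was -0.59.

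A list of 15 genes held regulators of Ciita and of its interferon pathway, and also Nlrc5, the counterpart of Ciita for class I genes. Of these, 4 were higher in D310N cells on average (Spi1 by 0.05, Jak1 by 0.05, Prdm1 by 0.10 and Ifngr1 by 0.12) and 5 were lower (among them Zbtb32 by -0.30, Socs1 by -0.29 and Nlrc5 by -0.18), with a median of 0.00. Of all tested genes 22.7% were higher and 25.4% lower, shares near those of this list. The response to LPS differed between genotypes in the joint test for Irf8 (adjusted p = 0.00165 in limma), Nlrc5 (0.00175) and Prdm1 (0.0116). Prdm1 encodes Blimp-1, a repressor of Ciita, and was higher in D310N cells at 30 min, by 0.28, and at 60 min, by 0.20. Irf8, a myeloid transcription factor, was lower at 120 min by -0.48 and at 360 min by -0.29, and Socs1, the feedback inhibitor of interferon signalling, by -0.59 and -0.49 at these times. At 360 min Irf8 and Socs1 lost their calls without WT replicate 1 of that time (-0.10 and -0.19, adjusted p = 0.215 and 0.206 in limma). They lost them also without D310N replicate 2 of 360 min, and Socs1 without D310N replicate 3. Prdm1 at 60 min lost its call without any of 4 libraries of that time (adjusted p up to 0.0881 in limma).

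In WT cells several of these genes rose before or together with Ciita. Irf1, an activator of the interferon-responsive Ciita promoter, had risen by 1.77 at 30 min, 2.05 at 60 min and 3.32 at 120 min. Prdm1 had risen by 1.3 at 30 min and 2.79 at 60 min. Ifngr1, a receptor chain for interferon-gamma, had risen by 0.76 at 60 min, and it fell by 0.95 at 240 min and 1.2 at 360 min relative to 0 min. Socs1 rose by 1.11 at 60 min, 4.14 at 120 min and 5.07 at 240 min. The order in time is a description of WT levels and says nothing of which gene acts on which.

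**Figure D5:**
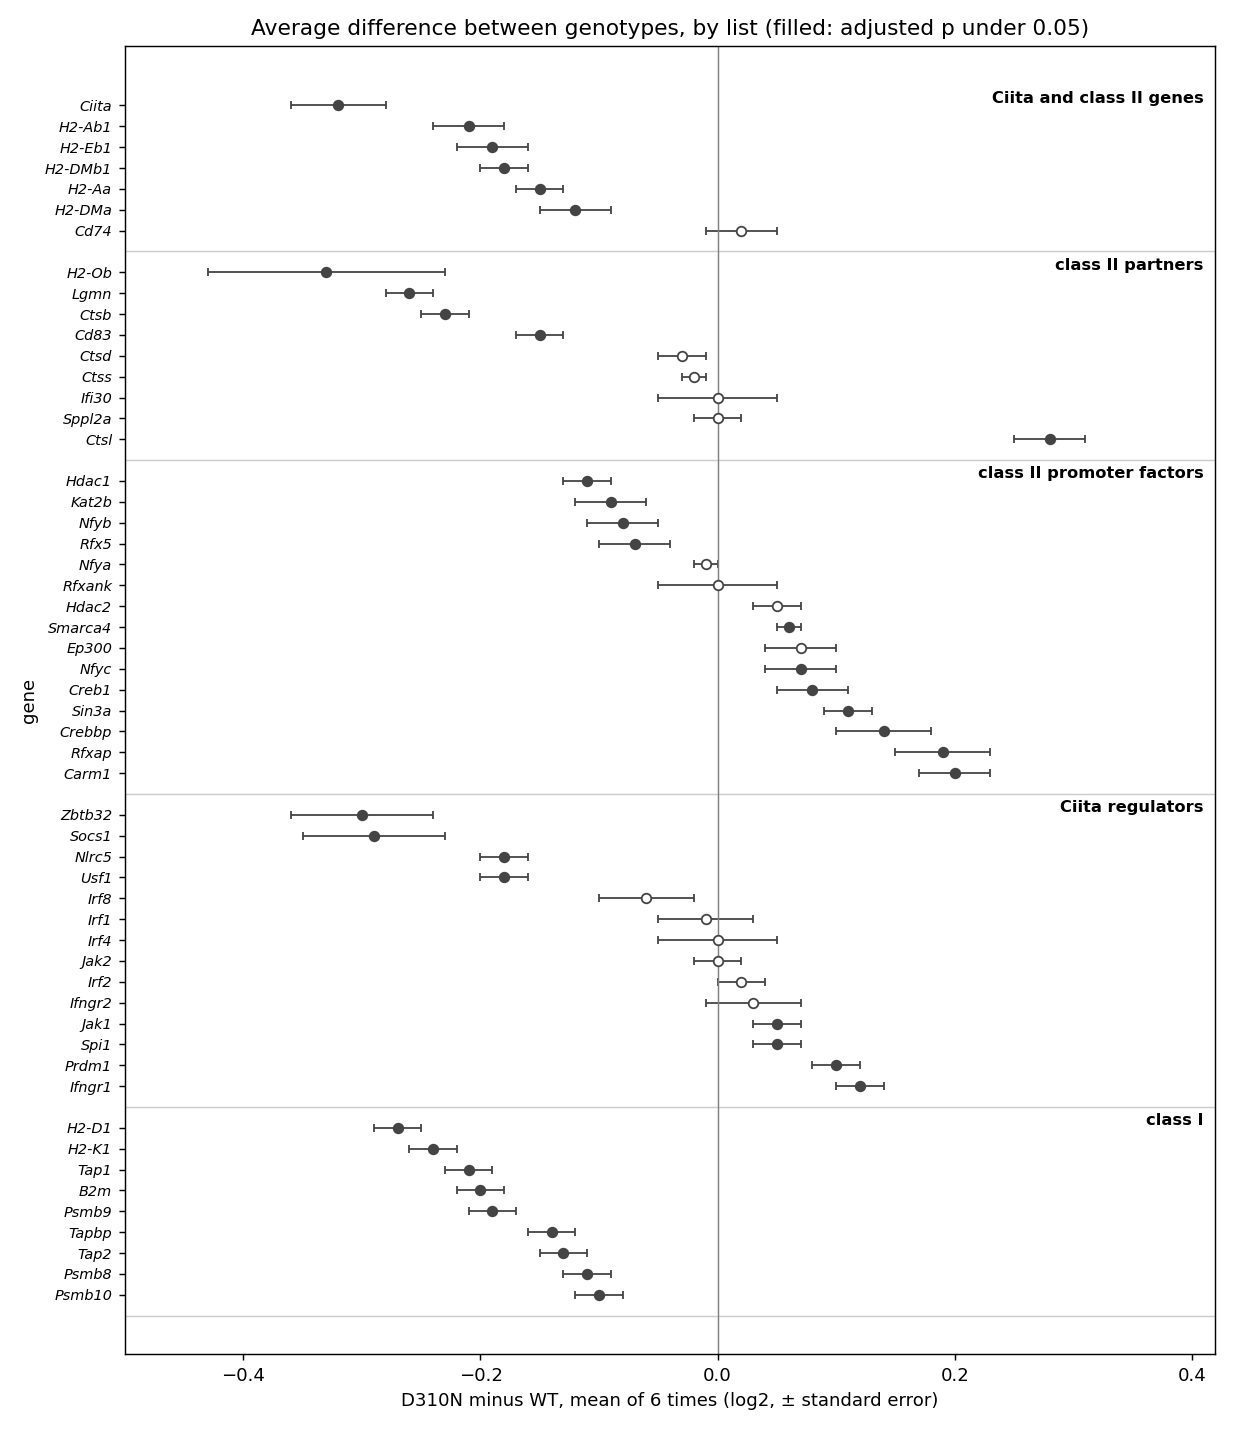
Average log2 difference between D310N and WT over the 6 times (x axis, D310N minus WT) of tested genes of the class II lists (y axis, grouped by list), with bars for the standard error of the limma fit. Ciita and 5 class II genes lie below 0, Cd74 lies at 0.02, and the 9 class I genes all lie below 0.

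The lower level was not limited to class II. Of the 9 listed genes of the class I pathway, which presents peptides from inside the cell, 9 were lower in D310N cells on average (25.4% of all tested genes were). Their median was -0.19 (H2-K1 by -0.24 and H2-D1 by -0.27), close to the average median of -0.18 of the members. At single times the lists differed. At 120 min 8 of the 9 class I genes and 2 of the 7 members were lower (9.72% of tested genes were), with medians of -0.21 and -0.07. At 360 min 2 class I genes and 6 members were lower (9.52%), with medians of -0.07 and -0.25. Some class I genes lie among the class II genes. In the stretch of 197134 bases on chromosome 17 from H2-DMa to H2-Eb1, the 5 other tested genes were all below 0, Psmb9 at -0.19, Tap1 at -0.21, Psmb8 at -0.11, Tap2 at -0.13 and H2-Ob at -0.33.

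Class II is also a mark of dendritic cells and B cells, which bone marrow cultures may hold. Of the 12 dendritic cell markers listed, 8 were tested, and Flt3, Dpp4, Cd209a and Siglech were under the filter in all libraries. Their summed linear level was 2550 to 3060 in WT and 4600 to 6880 in D310N libraries, and without Itgax 284 to 426 and 297 to 407. On average 3 of these 8 markers were higher and 2 lower in D310N cells, with a median of 0.01 (22.7% and 25.4% of all tested genes were higher and lower). Itgax was among the higher, by 1.19 ± 0.05. Of the 10 B cell markers listed, 9 were in the table and 3 were tested: Cd79b, Cd22 and Blnk. The others in the table, among them Cd79a, Ms4a1 and Pax5, were under the filter in all libraries. The sums of the 9 were 2580 to 4580 in WT and 2700 to 5370 in D310N libraries. Blnk made up most of them, at log2 11.24 to 12.36, with Cd22 at 6.28 to 7.26 and Cd79b at 4.17 to 5.12. On average 2 of the 3 tested markers were higher and 0 lower in D310N cells, with a median of 0.20 (22.7% and 25.4% of all tested genes). The part of such cells in the class II differences was not tested.

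Across the 12 group means, which share the libraries and their scaling, the members' profiles correlated with Pearson's r from 0.621 (H2-Eb1 and H2-DMa) to 0.987 (H2-Aa and H2-Ab1), and Ciita correlated with the others at 0.655 to 0.906. Among all other tested genes the profiles most like that of Ciita were those of Il33 (r = 0.989), Eml2 (0.987), Zfp949 (0.986), Hamp (0.985) and Tsku (0.984). These were picked as the highest, and the class II genes were chosen by name, so setting their values side by side is no test. Most like the mean profile of H2-Aa, H2-Ab1, H2-Eb1 and Cd74 were Fam188a (0.994), Ghitm (0.99), Traf1 (0.988), Il2rg (0.987) and Optn (0.987). The 2 sets shared no gene.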

How the data were processed

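RNA from 36 libraries of mouse macrophages was sequenced as single-end reads. The submitters' processing notes name STAR 2.5.2a, RSEM 1.2.31, DESeq2 1.10.1 and the mm10 build. The deposited table holds log2 values per gene. The transformation is not named in the sources used here, and it may draw low values together. The table's header writes D309N where the sample titles write D310N, and the titles' name is used. Of 16439 rows, 23 whose names had turned into dates were left out.

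The members and gene lists were chosen with earlier results of these data known. A plan for linear values, log2 after adding 1, was not needed, since the values were log2 already. Genes at a linear value of 10 (log2 3.32) or more in at least 3 libraries were tested. limma 3.58.1 (R 4.3.3) fitted 1 mean per group to all 36 libraries, leaving 24 residual degrees of freedom, and moderated variances along a trend with intensity. Tests were two-sided, adjusted by Benjamini-Hochberg over 11656 genes per comparison and called under 0.05. The fit was tested on simulated data. The alternatives were trimmed mean (TMM) scaling, quantile normalisation, other filters, pseudocounts of 0.5, 1 and 8, no trend, library weights, a replicate block, 1 mean per replicate number, only the compared libraries, and leaving out each library. For the gene lists and their named genes these were added after seeing the data. Named were all 7 members, fixed genes of the lists, and the 5 genes most like Ciita and most like the mean class II profile. Genes named with a list beyond those fixed (Ctsl, Ctsb, Cd83, Nlrc5, Spi1, Jak1 and Zbtb32) were added after their values were seen.

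Replicate numbers in the labels do not say that they pair libraries. Deviations of same-numbered libraries from their group means correlated above 0.1 for all 3 numbers in 1 comparison, D310N at 120 min against 0 min (0.325, 0.373 and 0.131), a sign of pairing that the labels do not give. At the other times against 0 min the D310N values were also positive, from 0.0366 to 0.419. The WT values against 0 min ran from -0.249 to 0.126. D310N libraries of the same number may thus not be independent across times, which the main fit took them to be. Promoters are from RefSeq (GRCm38.p6) and positions from GENCODE (GRCm38). Some listed genes are counted but not reported here by name.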

Additional observations from a re-analysis of the deposited data

How the results depend on the processing

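On average over the times each member kept its call and its direction under all 47 alternatives. At single times the counts moved. Of 2 members called at 0 min, 1 was called with quantile normalisation, 0 with no filter, 0 with no trend, 4 with library weights (among them Cd74, which was higher in D310N cells, at 0.14), and 0 to 2 when a library was left out. At 30 min leaving out a library gave 0 to 3. For the 1 member of 60 min, trimmed mean scaling gave 2, a filter at 50 gave 3, library weights 3, the compared libraries alone 3, and leaving out a library 0 to 3. For the 2 of 120 min, no filter gave 0, a pseudocount of 8, no trend, library weights, the replicate block and the compared libraries alone gave 1 each, and leaving out a library 0 to 2. At 360 min the compared libraries alone gave 0, and leaving out a library 3 to 6. Library weights called 1 member for WT cells (H2-DMa, lower) and 2 for D310N cells (higher) at 30 min against 0 min, and 5 from 240 to 360 min in WT cells. Leaving out a library gave 1 to 2 from 60 to 120 min and 0 to 4 from 240 to 360 min in WT cells, and in D310N cells 3 to 5, 1 to 4 and 1 to 3 for the last 3 steps. For the difference of responses library weights called 1 member at 240 min, 2 at 360 min and 3 jointly, and quantile normalisation 1 at 360 min. Leaving out a library gave 0 to 1 at 240 min, 0 to 2 at 360 min and 0 to 4 jointly.

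The replicate block changed 1 call at 120 min, H2-DMb1 (-0.17, adjusted p = 0.0558 in limma), and, fitted within genotype, it called Ciita's difference of responses at 360 min (-0.45, adjusted p = 0.0482 in limma), which makes 1 member. In D310N cells at 120 min against 0 min the block kept the count at 5. With 1 mean per replicate number and genotype, an alternative chosen after seeing the data for the lists, 2 promoter factors were lower and 2 Ciita regulators higher.

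Small uncalled values changed sign. Between genotypes H2-DMa at 30 min was 0.01 with quantile normalisation and -0.08 to 0.02 when a library was left out, H2-DMa at 60 min -0.08 to 0.01, and H2-Aa at 120 min -0.01 to 0.05. Against 0 min, H2-Ab1 at 30 min in WT cells was -0.01 with quantile normalisation and -0.04 to 0.06 when a library was left out, in D310N cells -0.02 to 0.03, and H2-DMa at 60 min in D310N cells -0.07 to 0.02. The called step of Cd74 from 120 to 240 min in D310N cells was -0.09 with quantile normalisation. The cause was not tested. Depth is unknown, which limits what can be said of low genes such as H2-Ob.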
